A study of Mus musculus with 12 samples.

Results

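The marginal zone is the layer of macrophages and B cells at the border between the white and the red pulp of the spleen, and 8 of its genes were measured here in blood and spleen of mice without and with nuclear myosin 1 (NM1), a motor protein of the cell nucleus. The genes were fixed by name: Marco, Cd209b and Siglec1 of its macrophages, Nr1h3 of their transcriptional control, Cr2 and Cd1d1 of its B cells, and the receptor Notch2 with its ligand Dll1. All 8 were found among 46603 Ensembl gene identifiers after matching to symbols. RNA was sequenced from NM1 knockout (KO) and wild-type (WT) mice, both on the C57/Bl6 background and 8 months of age. There were 3 libraries each of KO blood, WT blood, KO spleen and WT spleen. Blood was drawn from the submandibular vein and the spleen piece came from the tip of the organ. The labels name no treatment, and they do not say whether a library came from a mouse of its own or from several. A p-value given here thus measures only how much these libraries vary, which may be technical. KO here means the NM1 KO of the labels, which name no tissue restriction.

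The tissue labels did not decide whether a library was rich or poor in globin, and this bears on every value below. In 6 libraries the globin genes took 48.9% to 56.1% of all counts (globin-rich), and in the other 6 they took 0.846% to 5.90% (globin-poor). The globin-rich libraries were the blood-labelled KO 02, KO 03 and WT 01 and the spleen-labelled KO 03, WT 02 and WT 04. The globin-poor libraries were the blood-labelled KO 04, WT 03 and WT 04 and the spleen-labelled KO 01, KO 04 and WT 01. Each kind thus holds 3 KO and 3 WT libraries, and 3 libraries of each tissue label. Within a kind, however, the globin shares did not overlap between the labels. They were 48.9% to 52.1% for blood and 54.8% to 56.1% for spleen in the globin-rich kind. In the globin-poor kind they were 4.90% to 5.90% for blood and 0.846% to 2.95% for spleen. The globin-rich libraries had 9317793 to 12096089 counts each, of which 4092578 to 5828714 were not globin. The globin-poor libraries had 23140497 to 28243206 counts, of which 21776329 to 27409072 were not globin. Levels are given as CPM, the usual scaling of counts to a common library total, with globin left out of that total. A gene with no counts could still be at up to 0.515 to 0.733 CPM in a globin-rich library and at up to 0.109 to 0.138 CPM in a globin-poor one, the level that 3 counts give. These limits cover counting error only. Defining spleen genes follow the globin content and not the label: the lymphoid chemokines Cxcl13 and Ccl19 had no count in any of the 6 globin-rich libraries, 3 of them labelled spleen, and the red pulp macrophage factor Spic reached 1.69 CPM at most there, while its lowest level in a globin-poor library, 3 of which are labelled blood, was 46.4 CPM. Tissue names below are the labels.

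As background, macrophages of the marginal zone take up bacteria and other particles from blood that passes through the marginal sinus, and the metallophilic macrophages line its inner edge. Marginal zone B cells carry high levels of complement receptors and of CD1d, a molecule that shows lipids to natural killer T cells, and respond rapidly to antigens from blood. In mice their fate depends on the Notch2 receptor of the B cell and on Dll1 of neighbouring stromal cells. The macrophages of this zone in mice depend on LXRα, the oxysterol-activated nuclear receptor that Nr1h3 encodes. Several of these genes are not exclusive to the zone: follicular B cells and follicular dendritic cells also carry the products of Cr2, and myeloid cells also express Notch2.

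The promoters of 6 of the 8 genes were found in a RefSeq table of the build GRCm38.p6, as 8 windows that run from 250 bases before to 50 bases after a start site. The windows were searched on both strands for TGGGAA, the core that RBPJ, the DNA-binding partner of Notch, is known to bind, for GAGGAA, bound by the macrophage and B cell factor PU.1, and for the response element of LXR with its partner RXR, in which AGGTCA is read again after a gap of any 4 bases. The RBPJ letters were present in 5 of the 8 windows (those of Marco, Cd209b and Cr2 and both of Nr1h3) and in 25.6% of 32851 promoters in the table. The 2 windows of Nr1h3 overlap and hold the same 2 RBPJ matches. By gene, the RBPJ letters were present for 4 of 6. The PU.1 letters were present in 3 of the 8 windows (1 each of Marco, Nr1h3 and Dll1) and in 28.3% of all promoters. The LXR repeat was in none of the 8 windows and in 0.0152% of all promoters. In the 3 windows shown no match overlapped another. A match describes letters and not binding. The following promoters belong to the lectin or scavenger receptor genes of marginal zone macrophages and to the complement receptor gene of its B cells, whose levels in the libraries are given next. Capitals mark the RBPJ and PU.1 letters, on either strand. All 3 genes lie on the minus strand, and the windows are chr1:120504975-120505274 for Marco, chr8:3926792-3927091 for Cd209b and chr1:195176670-195176969 for Cr2.
Marco: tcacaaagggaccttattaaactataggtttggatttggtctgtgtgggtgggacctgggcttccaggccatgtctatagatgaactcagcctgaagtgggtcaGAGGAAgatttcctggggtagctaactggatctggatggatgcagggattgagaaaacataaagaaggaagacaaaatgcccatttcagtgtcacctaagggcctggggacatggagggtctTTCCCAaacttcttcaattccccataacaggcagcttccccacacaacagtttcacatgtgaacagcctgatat
Cd209b: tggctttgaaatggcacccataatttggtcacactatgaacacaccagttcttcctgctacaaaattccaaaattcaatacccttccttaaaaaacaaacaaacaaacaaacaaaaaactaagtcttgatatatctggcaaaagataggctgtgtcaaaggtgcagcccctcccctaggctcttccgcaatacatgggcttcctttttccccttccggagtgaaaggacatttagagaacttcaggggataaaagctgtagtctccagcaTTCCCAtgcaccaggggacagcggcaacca
Cr2: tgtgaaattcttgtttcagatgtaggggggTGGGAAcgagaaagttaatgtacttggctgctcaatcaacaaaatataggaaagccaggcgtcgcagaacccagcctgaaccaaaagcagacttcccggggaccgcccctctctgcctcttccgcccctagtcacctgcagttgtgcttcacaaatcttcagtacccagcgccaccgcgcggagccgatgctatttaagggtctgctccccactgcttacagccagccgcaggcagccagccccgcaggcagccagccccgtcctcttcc

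Marco, the gene of a scavenger receptor that binds bacteria, spans chromosome 1 from 120474538 to 120505024 on the minus strand (GRCm38) and has 1925 bases of exon. Among the globin-rich libraries it was at 0.894 CPM in KO blood 02 and without a count in KO blood 03 and KO spleen 03, against 0.686 CPM in WT blood 01, 0.653 CPM in WT spleen 02 and no count in WT spleen 04, from 12 counts in all. Among the globin-poor libraries it was at 58.7, 60.5 and 115 CPM in KO (blood 04, spleen 01 and spleen 04), against 61.4, 54.8 and 110 CPM in WT (blood 03, blood 04 and spleen 01). The highest globin-rich library lay far below the lowest globin-poor one, and within the globin-poor libraries the KO and WT values interleaved, with the highest 2 both from the spleen label. Both of the high libraries, KO spleen 04 and WT spleen 01, also had the lowest globin shares of the 12, at 1.62% and 0.846%, and the part of this in their Marco levels was not tested.

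Cd209b encodes the lectin SIGN-R1, which in mice binds bacterial polysaccharides, and lies on chromosome 8 from 3917655 to 3926844 on the minus strand, with 2115 bases of exon. Its levels were low throughout. The globin-rich KO libraries had 1.07, 0 and 0 CPM (blood 02, blood 03 and spleen 03), against 1.37, 3.26 and 1.22 CPM in WT (blood 01, spleen 02 and spleen 04), from 34 counts in all. The globin-poor KO libraries had 2.64, 2.77 and 9.52 CPM, against 3.40, 4.14 and 8.41 CPM in WT, with the libraries in the order used for Marco here and below. The 2 kinds of library overlapped here, since WT spleen 02 exceeded the lowest globin-poor library. The Cd209 family has several similar genes, so reads could be split among them; the family member Cd209a, a gene of dendritic cells, ranged from 0.244 to 4.80 CPM in the globin-rich kind and from 5.22 to 14.0 CPM in the globin-poor kind.

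Siglec1, the sialic acid-binding lectin CD169 of metallophilic macrophages, lies on chromosome 2 from 131069220 to 131086765 on the minus strand, with 7143 bases of exon. It was at 4.47, 2.44 and 1.65 CPM in globin-rich KO libraries, against 1.03, 2.61 and 1.71 CPM in WT, from 72 counts in all. In the globin-poor libraries it was at 6.65, 11.9 and 24.8 CPM in KO, against 6.29, 21.5 and 25.7 CPM in WT. The 2 kinds did not overlap, but the highest globin-rich value, from KO blood 02, and the lowest globin-poor value, from WT blood 03, were close. Both genotypes had low and high libraries among the globin-poor ones.

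Nr1h3, the LXRα gene, lies on chromosome 2 from 91184061 to 91202834 on the minus strand, with 2515 bases of exon. In the globin-rich libraries it was at 6.08, 0.939 and 0.183 CPM in KO, against 3.09, 5.01 and 2.69 CPM in WT, values that rest on 92 counts over 6 libraries. In the globin-poor libraries it was at 37.3, 40.3 and 55.7 CPM in KO, against 42.0, 40.9 and 58.1 CPM in WT, so KO and WT overlapped, while each kind stood apart from the other. The gene overlaps the annotated genes Gm13783 on its own strand and Gm23390 on the opposite strand, which reached at most 10 and 4 counts in any library.

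Cr2, which in mice encodes both complement receptors 1 and 2, lies on chromosome 1 from 195136811 to 195176716 on the minus strand, with 8112 bases of exon. It was at 107, 72.5 and 98.2 CPM in globin-rich KO libraries, against 98.6, 45.5 and 58.9 CPM in WT. It was at 234, 308 and 401 CPM in the globin-poor KO libraries, against 237, 380 and 588 CPM in the globin-poor WT libraries. Every globin-rich library was below every globin-poor one, yet the gene was well measured in both kinds, with 2546 counts over the globin-rich libraries. The median of the globin-rich libraries was 0.248 times that of the globin-poor ones.

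Cd1d1, the mouse CD1d gene, lies on chromosome 3 from 86995834 to 86999441 on the minus strand, with 2570 bases of exon. The globin-rich libraries had 25.0, 13.0 and 21.9 CPM in KO, against 17.3, 10.9 and 13.0 CPM in WT. The globin-poor libraries had 27.6, 40.0 and 47.7 CPM in KO, against 25.9, 37.1 and 56.5 CPM in WT. The 2 kinds met almost without a gap, between KO blood 02 and WT blood 03. Its near copy Cd1d2 ranged from 0.183 to 1.72 CPM in the globin-rich kind and from 0.230 to 0.928 CPM in the globin-poor kind, and reads shared by the pair could be assigned to either.

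Notch2 and Dll1 are the receptor and the ligand of the signal for marginal zone B cell fate. Notch2 lies on chromosome 3 from 98013527 to 98150361 on the plus strand, with 10782 bases of exon. It was at 228, 149 and 186 CPM in globin-rich KO libraries, against 263, 113 and 128 CPM in WT. In the globin-poor libraries it was at 66.9, 100.1 and 156 CPM in KO, against 77.2, 138 and 138 CPM in WT. The 2 kinds overlapped, and Notch2 was the single gene of the 8 with a higher median in the globin-rich libraries, 168 against 119 CPM, a direction that turned when globin was kept in the totals. Dll1 lies on chromosome 17 from 15367354 to 15376872 on the minus strand, with 4219 bases of exon. It was at 0.715, 0.751 and 0.366 CPM in globin-rich KO libraries, against 0.343, 1.31 and 0 CPM in WT, from 18 counts in all. In the globin-poor libraries it was at 33.8, 38.3 and 45.4 CPM in KO, against 31.7, 38.9 and 64.8 CPM in WT. The ligand was thus near the counting limit in the globin-rich libraries, where the receptor was far above it. Notch2 overlaps the annotated Gm42819 and Gm42820, with at most 21 and 67 counts in any library, and Dll1 overlaps the opposite-strand A930024N18Rik, with at most 22. Whether the authors' counting used the strand of the reads is not given in the sources used here.

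**Figure D1:**
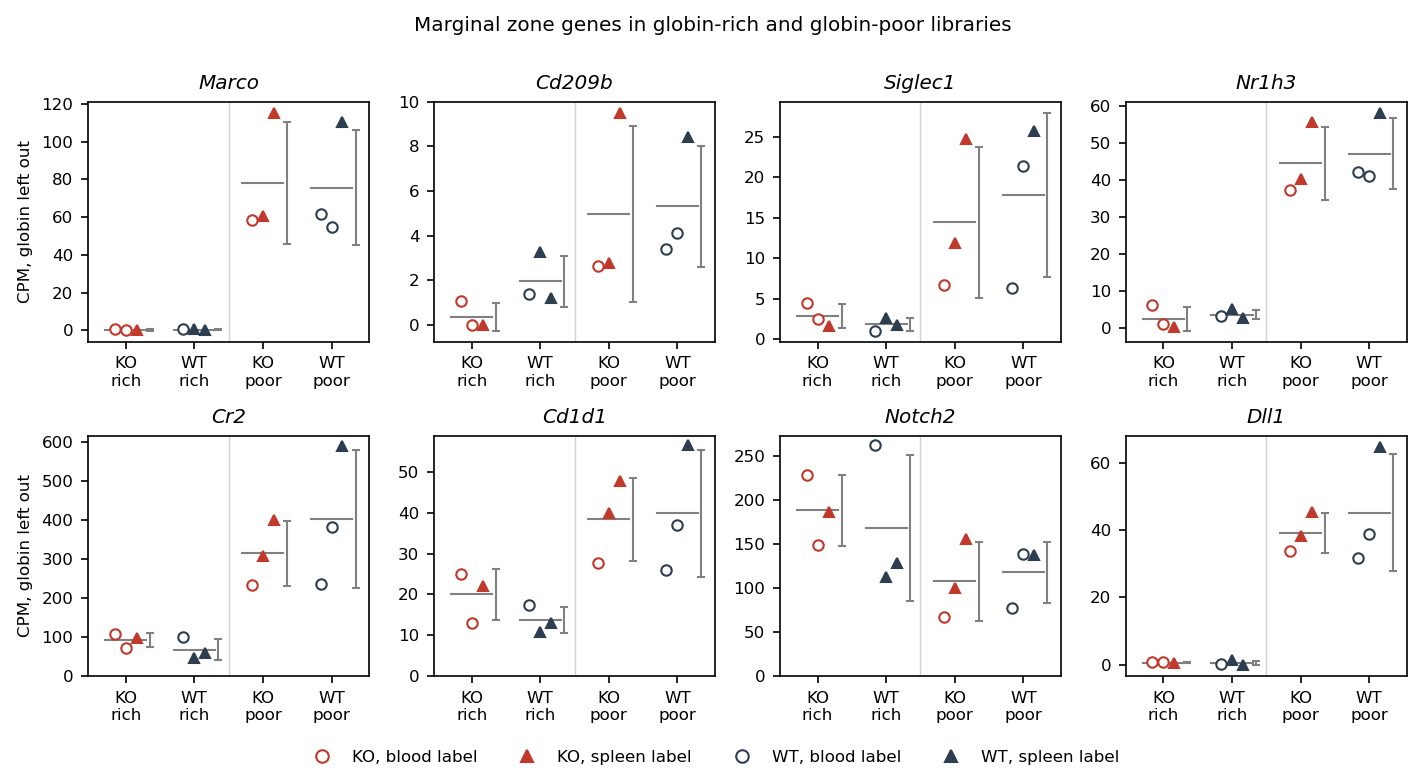
Level of each marginal zone gene in every library, as CPM with globin left out, in globin-rich KO, globin-rich WT, globin-poor KO and globin-poor WT libraries. Each point is 1 library, open circles carry the blood label and filled triangles the spleen label, and lines and bars give the mean and SD of 3 libraries. Marco and Dll1 lie near 0 in the globin-rich libraries, Notch2 does not, and KO and WT points overlap in the globin-poor libraries.

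Over all 8 genes, 6 (Marco, Siglec1, Nr1h3, Cr2, Cd1d1 and Dll1) were lower in every globin-rich library than in every globin-poor library. Of the 16377 genes with at least 1 CPM in at least 3 libraries, 45.5% met the same condition. None of the 8 was higher in every globin-rich library, and 3.32% of all genes were. The median gene was 0.91 lower in the globin-rich libraries on the log2 scale, 1.67 lower with globin kept in the totals and 0.26 lower with TMM scaling, a trimmed mean that compares libraries through their middle genes. The count of lower genes was 7 with globin kept, with Cd209b added, and 5 with TMM scaling, where Cd1d1 was lost. Notch2 changed direction with the scaling: the ratio of its medians, globin-rich over globin-poor, was 1.41 with globin left out, 0.681 with globin kept and 2.82 with TMM scaling. With TMM scaling its levels did not overlap, at 174 to 258 in the globin-rich libraries and 57.0 to 106 in the globin-poor ones. In bulk RNA, fewer cells of a type and less RNA per cell cannot be told apart. No test was made between the 2 kinds, since they were defined from the counts.

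Per kilobase of exon, the order of the genes was different in the 2 kinds. In the globin-rich libraries Notch2 was first, at a median of 15.6 CPM per kilobase, followed by Cr2 at 10.5 and Cd1d1 at 5.89, and the medians of the other 5 genes were at most 1.15. The macrophage genes and the Notch ligand were at the end of that order, and the 3 genes that B cells express at its start. In the globin-poor libraries the median levels were 42.4 CPM per kilobase for Cr2, 31.7 for Marco, 16.5 for Nr1h3, 15.0 for Cd1d1, 11.0 for Notch2, 9.15 for Dll1, 2.34 for Siglec1 and 1.78 for Cd209b. The ranges of Cr2 (28.8 to 72.5 CPM per kilobase) and Marco (28.4 to 59.9) overlapped, as did those of Nr1h3, Cd1d1, Notch2 and Dll1, each with the next, and those of Siglec1 and Cd209b. Marco did not overlap Nr1h3 (14.8 to 23.1), and Dll1 (7.51 to 15.3) did not overlap Siglec1, which reached at most 3.601 there.

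Other genes of the marginal zone and its surroundings were compared between the kinds in the same way. Of 6 further macrophage genes, 4 were lower in every globin-rich library: Timd4, Mertk and Axl, receptors for the uptake of dying cells, and Csf1, the macrophage growth factor. Timd4 did not exceed 0.715 CPM in any globin-rich library, and ranged from 17.8 to 53.2 CPM in the globin-poor kind. Msr1 and Csf1r overlapped between the kinds. The median of Msr1 was higher in the globin-rich kind, at 4.18 CPM against 2.94 CPM. Csf1r was at 83.3 to 208 CPM in the globin-rich kind and 147 to 301 CPM in the globin-poor kind. Of 11 genes of the marginal sinus and stroma, the cells that supply Dll1, 10 were lower; Madcam1, the adhesion molecule that marks the sinus lining, was at 0 to 3.26 CPM against 16.3 to 32.3 CPM. The summed stromal genes ranged from 5.45 to 29.2 CPM in the globin-rich kind and from 573 to 1530 CPM in the globin-poor kind. Of 9 further marginal zone B cell genes, 6 were lower and 1, Cd9, was higher. Their sum was higher in the globin-rich kind, with a median of 1249 CPM against 816.5 CPM. Cd36 and S1pr1 overlapped, with Cd36 at 137.5 to 396.1 CPM in the globin-rich kind and 87.23 to 199.3 CPM in the globin-poor kind. S1pr3, a sphingosine phosphate receptor, was at 0.188 to 1.96 CPM against 29.9 to 92.3 CPM, and the Fc receptor-like gene Fcrl5 at 0.733 to 1.79 CPM against 8.81 to 32.5 CPM. Cd9 was at 371 to 1028 CPM against 30.5 to 62.5 CPM, and platelets carry its product too: all 6 platelet genes were higher in every globin-rich library, with sums of 2180 to 6813 CPM against 193 to 340.2 CPM. Of 9 genes listed as LXR partners and targets 5 were lower. Among them were Rxra, at 6.57 to 11.3 CPM against 35.6 to 78.0 CPM, and Apoe, at 87.3 to 322 CPM against 1134 to 2561 CPM. Abca1, Abcg1, Mylip and Pltp overlapped. Their medians were 47.2, 42.1, 92.8 and 14.1 CPM in the globin-rich kind and 49.9, 50.3, 75.0 and 12.8 CPM in the globin-poor kind. Over all genes, 45.5% were lower and 3.32% higher in every globin-rich library. The part of these other cell types in the levels of the 8 genes was not tested.

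Of 18 other genes of the Notch pathway, 8 were lower in every globin-rich library, and the remaining 10 overlapped. The ligands Dll4 and Jag1 reached at most 0.715 and 6.11 CPM in a globin-rich library, while their globin-poor levels ranged from 5.33 to 10.9 and from 6.80 to 16.9 CPM. The target genes Hes1 and Nrarp were lower as well, Hes1 at 1.52 to 7.50 CPM against 49.7 to 74.3 CPM. Dtx1, a Notch target of marginal zone B cells counted with the B cell genes, was at 33.7 to 84.8 CPM against 143 to 371 CPM. The fringe gene Lfng, which modifies Notch receptors, overlapped, at 73.3 to 209.5 CPM against 119 to 209.6 CPM, as did Notch1, at 16.9 to 67.8 CPM against 5.37 to 44.3 CPM. As with the 8 genes themselves, these counts stand beside the 45.5% of all genes.

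General B cell genes were measured at high counts in both kinds of library. The sum of 8 general B cell genes, among them Ms4a1 and Pax5, ranged from 1185 to 3025 CPM in the globin-rich kind and from 2666 to 5076 CPM in the globin-poor kind. The marginal zone genes of B cells were therefore also expressed per 1000 CPM of these summed genes, which cancels the scaling of a library. On that scale Cr2 was at 29.6 to 38.4 in globin-rich libraries, median 34.5, and at 84.6 to 125 in globin-poor libraries, median 98.8. Cd1d1 was at 5.30 to 9.18, median 7.39, against 9.24 to 12.7, median 11.5. Notch2 was at 60.8 to 97.4, median 74.4, against 25.1 to 45.5, median 29.6. None of the 3 overlapped between kinds: Cr2 and Cd1d1 were lower relative to B cell genes in the globin-rich libraries and Notch2 was higher. Of all genes, 22.8% were lower and 5.67% higher without overlap on this scale. Cr2 is also expressed by follicular dendritic cells and Notch2 by myeloid cells, so the quantity is not a level per B cell. Of the markers of those other cells, Cxcl13, which follicular dendritic cells produce, was at 0 in every globin-rich library and ranged from 44.3 to 213 CPM in the globin-poor kind, and the monocyte gene Ccr2 was at 50.1 to 132 CPM against 8.50 to 21.4 CPM. Of the 7 monocyte and dendritic cell genes Ccr2 was the single one higher in every globin-rich library, while 5 (Itgax, Flt3, Cd209a, Xcr1 and Clec9a) were lower and Ly6c2 overlapped, and their sum had a median of 132 CPM in the globin-rich kind and 196 CPM in the globin-poor kind. The part of these cells in the result was not tested.

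**Figure D2:**
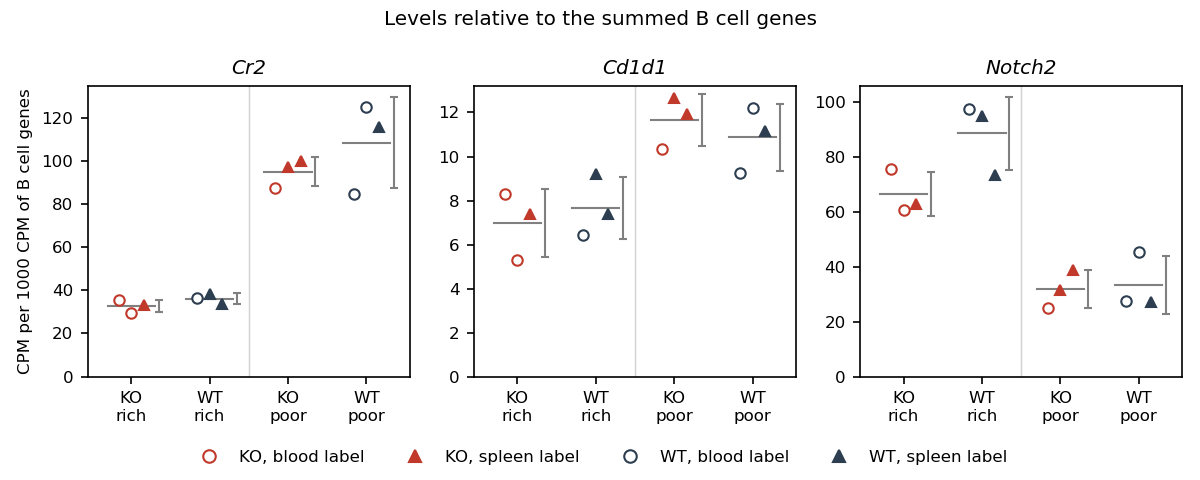
Cr2, Cd1d1 and Notch2 as CPM per 1000 CPM of 8 summed B cell genes, in globin-rich KO and WT and globin-poor KO and WT libraries, with the mean and SD of 3 libraries. Cr2 lies at 29.6 to 38.4 in the globin-rich libraries and at 84.6 to 125 in the globin-poor ones, and Notch2 lies the other way round.

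Because 3 globin-poor libraries carry the blood label and 3 the spleen label, the tissue label could be tested among them, with genotype as a term of the model. These blood-labelled libraries also had the higher globin shares, at 4.90%, 5.07% and 5.90%, against 0.846%, 1.62% and 2.95% under the spleen label. Label and globin share can thus not be told apart in this comparison. All 8 genes had lower estimates under the blood label. None passed edgeR's quasi-likelihood test at a Benjamini-Hochberg adjusted p under 0.05, and 0.0527% of 17089 genes did (9 genes, 7 higher and 2 lower under the blood label; 5080 genes, or 29.7%, had an unadjusted p under 0.05). Cd1d1 was at 27.6, 25.9 and 37.1 CPM under the blood label, against 40.0, 47.7 and 56.5 CPM under the spleen label, with no overlap, and its log2 fold change was -0.46 ± 0.17 (SE; edgeR adjusted p = 0.121). It was the single gene of the 8 without overlap, a condition that 24.8% of all genes met in the same direction; none of the 8 was higher without overlap, and 8.96% of all genes were. Cr2 differed by -0.47 ± 0.22 (edgeR adjusted p = 0.19), Marco by -0.44 ± 0.24 (0.246) and Nr1h3 by -0.12 ± 0.17 (0.638). The number of genes called in this comparison depended on the method: it was 2827 with DESeq2, 1339 with limma-voom and 1384 with no filter on low counts, and 1 to 2539 when each library was left out (2539 without KO spleen 01). None of the 8 was called under any of these. The median of the 8 was -0.45, that of all genes -0.03, and that of the 8 general B cell genes -0.36. Relative to the summed B cell genes none of the 8 was without overlap between the labels, while 4.74% of all genes were lower and 17.8% higher. Among the globin-rich libraries no marginal zone gene was without overlap between the labels, against 3.27% of all genes lower and 6.75% higher under the blood label.

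**Figure D3:**
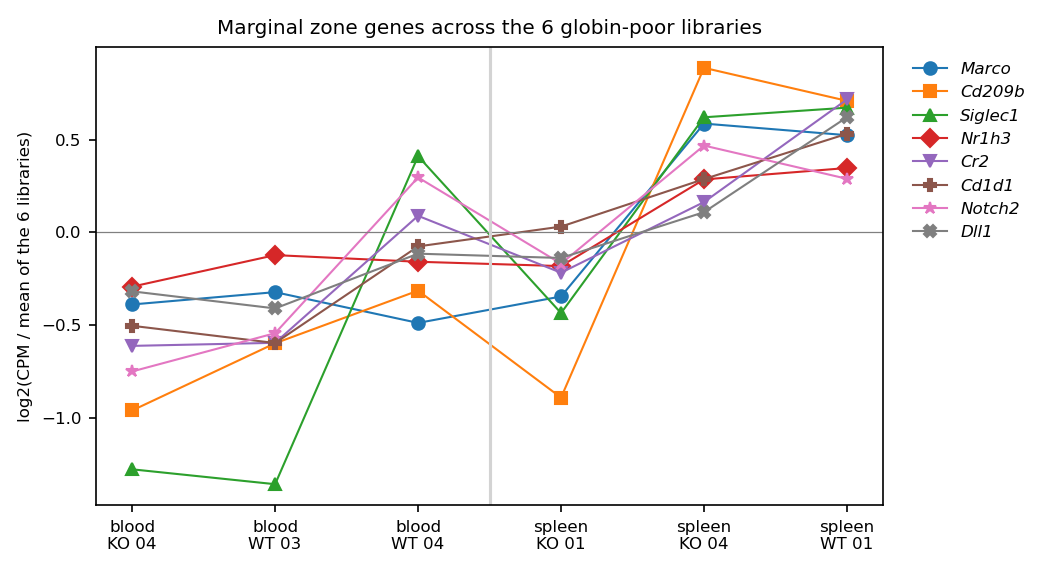
Level of each gene in the 6 globin-poor libraries, as log2 of its CPM over its mean in those libraries. Blood-labelled libraries stand left of the vertical line and spleen-labelled ones right of it, with KO left of WT within each label. The 8 lines tend to move together, with KO spleen 04 and WT spleen 01 at the upper end, and KO and WT overlap.

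The 8 genes tended to go up and down together across the globin-poor libraries. The Pearson correlation of log2(CPM + 1) between pairs ranged from 0.635 for Marco with Notch2 to 0.978 for Siglec1 with Notch2 over 6 libraries, with 0.967 for Marco with Nr1h3 and 0.957 for Cr2 with Dll1. The points are the same 6 libraries for every pair, which differ in depth and globin share, and the correlations are given as a description only. Among 10905 genes that averaged 5 CPM or more there, those most like each gene over the same 6 libraries were Prr7, Txndc12 and Meg3 for Marco, with r of 0.994, 0.993 and 0.992. They were Pdzd4, Gskip and Csad for Cd209b (0.995, 0.993 and 0.989), Pknox1, Serpinb6b and Gpbp1l1 for Siglec1 (0.999, 0.998 and 0.998), and Calhm6, Trpv4 and Arhgef10l for Nr1h3 (0.999, 0.998 and 0.995). Klf4, Ptpn23 and Fbrs were nearest to Cr2 (0.995, 0.995 and 0.993), and Ltk, Rexo4 and Fam98c to Cd1d1, with r of 1.00, 0.998 and 0.998. Dnm1l, Il13ra1 and Trpm2 were nearest to Notch2 (0.999, 0.998 and 0.997), and Unc13a, Tead2 and Gfi1 to Dll1 (0.999, 0.994 and 0.992). None of these genes belongs to the marginal zone or pathway lists used here.

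The question of the study, whether loss of NM1 changes expression in blood and spleen, was asked of the 8 genes first in the globin-poor libraries, where all of them are expressed. KO means ± SD over 3 libraries were 78.2 ± 32.3 CPM for Marco, against 75.6 ± 30.4 CPM in WT. They were 14.5 ± 9.34 against 17.8 ± 10.2 CPM for Siglec1, 44.4 ± 9.88 against 47.0 ± 9.64 CPM for Nr1h3, and 314 ± 83.5 against 402 ± 177 CPM for Cr2. No gene was without overlap between KO and WT, a condition that 1.16% of all genes met as lower and 2.2% as higher in KO. With the tissue label as a term, edgeR called none of the 8, and 0% of 17089 genes (0 genes; 808, or 4.73%, had an unadjusted p under 0.05). The log2 fold change, KO over WT, was -0.48 ± 0.22 (SE) for Cr2, the smallest p of the 8 (unadjusted 0.0585, edgeR adjusted p = 0.741). It was -0.10 ± 0.24 for Marco, -0.42 ± 0.43 for Cd209b, -0.68 ± 0.48 for Siglec1 and -0.14 ± 0.17 for Nr1h3. For Cd1d1 it was -0.20 ± 0.17, for Notch2 -0.31 ± 0.26 and for Dll1 -0.27 ± 0.18, and the edgeR adjusted p of the 8 lay between 0.741 and 0.931. All 8 estimates were below 0, with a median of -0.29, while 8491 of the 17089 genes were below 0, with a median of 0.0022. The direction was not firm for each gene. The KO mean of Marco was above its WT mean, and its estimate, which takes the tissue label into account, was 0.081 without WT spleen 01 and 0.079 without KO spleen 01; that of Dll1 was 0.016 without WT spleen 01. When each library was left out in turn, Siglec1 ranged from -0.95 to -0.23, Cd209b from -0.86 to -0.15 and Notch2 from -0.59 to -0.060, with the weakest estimates without WT blood 04, KO spleen 01 and KO blood 04, in that order. DESeq2 called 9 genes here and none of the 8. Relative to the summed B cell genes, which were themselves at 2666 to 3998 CPM in KO and 2797 to 5076 CPM in WT, none of the 8 was without overlap between KO and WT, against 1.03% of all genes lower and 3.21% higher.

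In the globin-rich libraries 5 of the 8 genes passed the filter on low counts, and Marco, Cd209b and Dll1 did not. Cr2 averaged 92.5 ± 17.9 CPM in KO and 67.7 ± 27.7 CPM in WT (SD, n = 3 each), Cd1d1 20.0 ± 6.27 and 13.7 ± 3.29 CPM, and Notch2 188 ± 39.8 and 168 ± 82.5 CPM. EdgeR's log2 fold changes were 0.12 ± 0.17 (SE) for Cr2, 0.23 ± 0.25 for Cd1d1, -0.19 ± 0.19 for Notch2, 0.37 ± 1.11 for Siglec1 and -1.72 ± 1.41 for Nr1h3, with adjusted p from 0.72 to 0.927. No gene was called, 0% of 13056 (953, or 7.3%, at an unadjusted p under 0.05; DESeq2 called 11). Without overlap, 1 of the 8 was lower in KO, Cd209b at 0 to 1.07 CPM against 1.22 to 3.26 CPM, and 5.92% of all genes were; none was higher, and 6.74% of all genes were. The separation of Cd209b rests on 6 counts in KO blood 02 against 5 counts in WT spleen 04, which is within counting error. Relative to the summed B cell genes Cd209b was the single gene of the 8 lower in every KO library, as were 16.2% of all genes, and none was higher, against 0.959% of all genes. The B cell sums themselves were at 2448 to 3025 CPM in KO (median 2976) and 1185 to 2697 CPM in WT (median 1749). The low levels of Cd209b and Nr1h3 divided the libraries in the same way as counts on olfactory receptor genes, the odorant receptors of the nose. The sum over 1198 such genes was at 129, 7.89 and 8.04 CPM in the globin-rich KO libraries, against 144, 112 and 100.2 CPM in the WT libraries, and at 6.52 to 11.6 CPM in the globin-poor ones. Cd209b had no count, and Nr1h3 was below 1 CPM, in precisely the 2 KO libraries without raised olfactory receptor counts. The other low genes did not divide in this way. Marco was also without a count in WT spleen 04. Dll1 was at 0.751 CPM in KO blood 03 and at 0 in WT spleen 04, and Siglec1 at 2.44 CPM in KO blood 03 and 1.03 CPM in WT blood 01. Among the 4 libraries with raised sums the levels did not follow the sum. In order of falling sum, Cd209b was at 1.37, 1.07, 3.26 and 1.22 CPM and Nr1h3 at 3.09, 6.08, 5.01 and 2.69 CPM. Both libraries without raised counts are KO, and every WT library of this kind had raised counts, so genotype and these counts are not separated here. The part of the olfactory receptor counts in the result was not tested. Without the 4 libraries with raised olfactory receptor counts, an alternative chosen after seeing the data, Cd209b joined the genes lower in every globin-rich library, which were then 7 of 8.

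**Figure D4:**
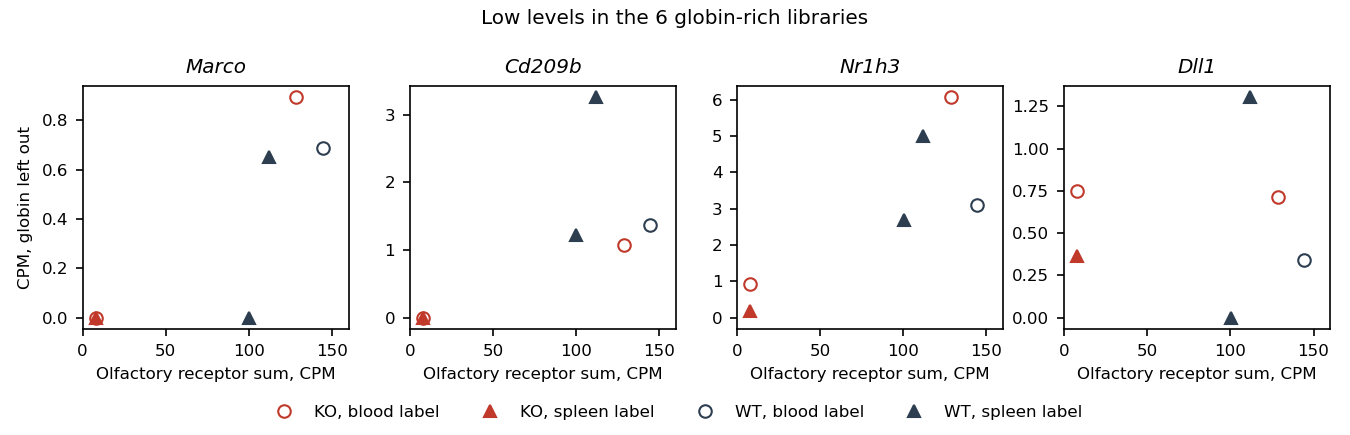
CPM of Marco, Cd209b, Nr1h3 and Dll1 in the 6 globin-rich libraries against the summed CPM of olfactory receptor genes in the same library, KO in red and WT in dark blue. The libraries KO blood 03 and KO spleen 03 stand at the left with sums near 8 CPM, and the other 4 lie at 100.2 to 144 CPM. Cd209b and Nr1h3 are lowest at the left, while Marco and Dll1 overlap between left and right.

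With all 12 libraries in the model, and library kind and tissue label as terms, no gene was called either, 0% of 17555 (816, or 4.65%, at an unadjusted p under 0.05; DESeq2 called 1, none of the 8). The estimates for the 8 genes lay between -1.09 ± 0.62 for Cd209b (edgeR adjusted p = 0.899) and 0.07 ± 0.16 for Cd1d1 (0.959), with 7 of 8 below 0 and a median of -0.14. Cr2 was at -0.09 ± 0.19, Notch2 at -0.12 ± 0.18 and Marco at -0.16 ± 0.37.

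Taken by tissue label alone, as the labels lay the study out, KO and WT differ in library kind. KO spleen holds 1 globin-rich library and 2 globin-poor, and WT spleen 2 and 1; KO blood holds 2 and 1, and WT blood 1 and 2. Under the spleen label the log2 fold changes of the 8 genes lay between -0.84 ± 1.22 for Cd209b and 0.61 ± 1.93 for Marco. Under the blood label they lay between -0.998 ± 1.01 for Cd209b and 0.27 ± 0.84 for Notch2, and Marco was at -0.87 ± 1.85. The standard errors reached 1.93, against 0.48 at most in the globin-poor libraries. No gene was called by edgeR in either, 0% of 15402 under the spleen label (359, or 2.33%, at an unadjusted p under 0.05) and 0% of 15002 under the blood label (27, or 0.18%). DESeq2 called 0 under both. With library kind as a term the estimate for Marco under the spleen label was -0.47, and under the blood label it was 0.05. No marginal zone gene was without overlap between KO and WT under either label, against 2.24% of all genes lower and 1.3% higher in KO under the spleen label and 3.47% lower and 0.11% higher under the blood label. The difference of the KO effect between the labels, spleen minus blood, was tested as an interaction with library kind as a term: it lay between -1.20 and 0.38 for the 8 genes, with an edgeR adjusted p of 1 for each, and 0% of 19117 genes were called (248, or 1.3%, at an unadjusted p under 0.05; DESeq2 called 7).

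**Figure D5:**
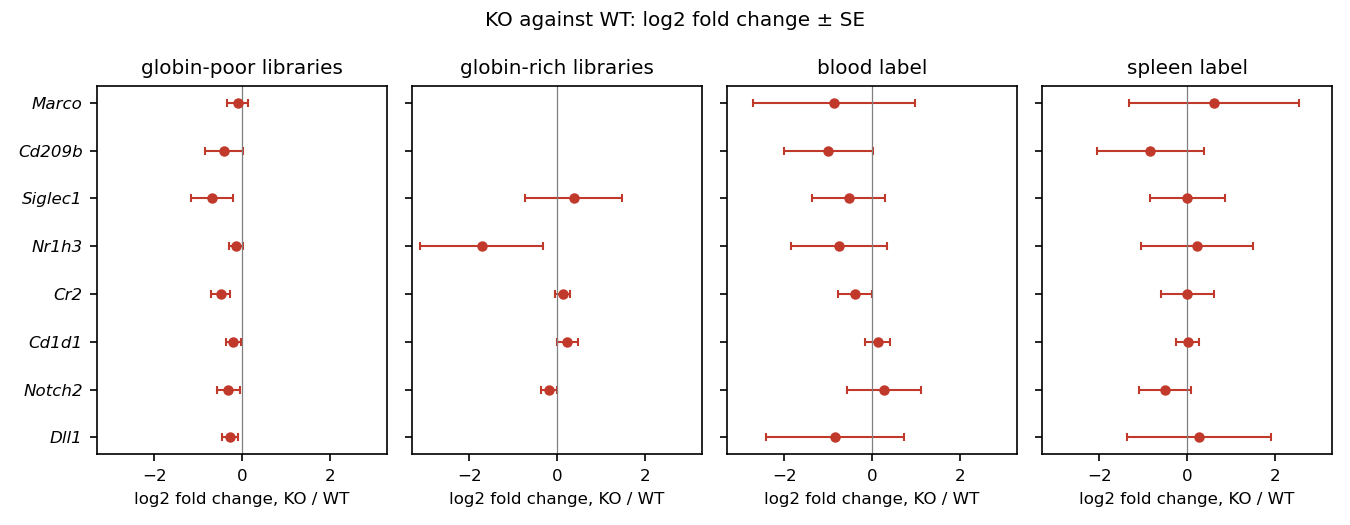
Log2 fold change, KO over WT, with its SE from edgeR, for each marginal zone gene in the globin-poor libraries, the globin-rich libraries, the blood label and the spleen label. All 8 estimates lie below 0 in the globin-poor libraries, between -0.68 and -0.10, with narrower bars than under either tissue label; without WT spleen 01 those of Marco and Dll1 were 0.081 and 0.016.

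The lists of pathway and neighbouring genes held no call between KO and WT in the globin-poor libraries. All 6 further macrophage genes had estimates below 0, with a median of -0.36, led by Timd4 at -0.40 ± 0.16 and Axl at -0.39 ± 0.21 (SE; edgeR adjusted p = 0.741 each). Of 9 LXR partners and targets 6 were below 0, median -0.23, with the cholesterol exporter Abca1 at -0.64 ± 0.25 and the phospholipid transfer gene Pltp at -0.53 ± 0.26. Of 9 further marginal zone B cell genes 7 were below 0, median -0.26, with S1pr3 at -0.46 ± 0.22 and the tetraspanin Cd9 at -0.30 ± 0.15. Of 6 genes of CD1d presentation 4 were below 0, median -0.26, with the lysosomal protease Ctss at -0.30 ± 0.19 and Psap, the precursor of the saposins that load lipids, at -0.27 ± 0.22. Of 18 other Notch pathway genes 11 were below 0, median -0.14, with the receptor Notch3 at -0.68 ± 0.32 and the target Nrarp at 0.50 ± 0.32. All 8 general B cell genes were below 0, median -0.25, with the chemokine receptor Cxcr5 at -0.35 ± 0.17 and Ms4a1 (CD20) at -0.35 ± 0.22. All 11 stromal genes were below 0, median -0.35; the collagen gene Col1a1 was at -0.44 ± 0.18, and Cxcl13, the chemokine that draws B cells to follicles, was at -0.81 ± 0.20 (unadjusted p = 0.00405, edgeR adjusted p = 0.741). All 7 monocyte and dendritic cell genes were below 0 too, median -0.35, while 5 of 6 plasma cell genes were above 0, median 0.23. EdgeR called no member of any list between KO and WT in the other comparisons either. None of these lists was tested as a set, and the median of all genes was 0.0022. WT spleen 01 was the single globin-poor WT library with the spleen label. Of all libraries it had the highest sums of stromal (1530 CPM), general B cell (5076 CPM) and monocyte and dendritic cell genes (297.9 CPM). Its plasma cell sum was 1259 CPM, against 1945 CPM in KO spleen 04. No list was refitted without WT spleen 01.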

How the data were processed

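The deposited files hold raw counts per Ensembl gene, 1 table per library, made by the authors. Per the submitters' processing notes, HTSeq was used together with HISAT2 2.0.4, Trimmomatic 0.36, SAMtools 0.1.19 and FastQC, and the build was mm10 (GRCm38). Per the labels, total RNA entered a NEBNext Ultra II kit. The strand setting and annotation release are not given in the sources used here. Symbols were matched for 46005 of 46603 identifiers (GENCODE vM21 coordinates).

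Library kind was set by a globin share over 25% of counts (11 globin genes). Globin counts were left out of CPM and of the models. The test was edgeR 4.0.16's quasi-likelihood F test (robust, filterByExpr, TMM), with p-values adjusted by Benjamini-Hochberg over all genes tested and called under 0.05. DESeq2 1.42.0, limma-voom 3.58.1, other scalings and filters, and fits with a replicate block or without each library in turn were alternatives. The fits were checked on simulated counts. The closest of all pairs of libraries differed by more than counting noise, with a chi-square per degree of freedom of 7.17.

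Named genes were all 8 members in every library, the 2 genes of each other list with the smallest p between KO and WT in globin-poor libraries, and the 3 genes most correlated with each member; genes that show how the kinds of library differ were named after their values were seen. Members and lists were chosen with earlier results of these data known.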

Additional observations from a re-analysis of the deposited data

How the results depend on the processing

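No alternative brought any of the 8 genes under an adjusted p of 0.05: of 841 recomputed estimates 762 kept their direction, 79 changed it and 0 passed the threshold. The counts of called genes over all genes moved more. With no filter on low counts they were 55 (all 12 libraries), 4 (globin-poor), 49 (globin-rich), 1384 (tissue label in globin-poor libraries) and 9 (interaction). DESeq2 gave 1, 9, 11, 2827 and 7 in the same order, and limma-voom 1339 for the tissue label. With library size only, the counts were 28 (globin-rich), 4 (tissue label) and 1 (interaction). For the tissue label DESeq2 size factors, globin kept and a filter of 5 CPM in 3 libraries each gave 5. Leaving out each library gave 0 to 1 called genes over all 12, 0 to 391 in the globin-rich libraries (391 without WT blood 01, 4 without KO blood 02) and 1 to 2539 for the tissue label (2539 without KO spleen 01, 644 without KO blood 04, 33 without WT blood 03). The cause was not tested.

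The estimates that changed sign, in log2 units, were the following. With library size only they were, over all 12 libraries, Siglec1 0.077, Cr2 0.036 and Notch2 0.020; globin-rich, Notch2 0.069; blood label, Cd1d1 -0.29 and Notch2 -0.11; spleen label, Notch2 0.22; interaction, Cr2 0.15 and Cd1d1 0.13. With no filter, Cr2 was 0.046 and Notch2 0.011 over all 12. With limma-voom, Cd1d1 was -0.053 over all 12, and Siglec1 -0.36, Nr1h3 -0.27 and Cd1d1 -0.13 under the spleen label. With library kind as a term, the blood label gave Marco 0.045, Siglec1 0.10, Nr1h3 0.070, Notch2 -0.43 and Dll1 0.19, and the spleen label Marco -0.47, Siglec1 -0.69, Nr1h3 -1.27, Cr2 -0.23, Cd1d1 -0.077 and Dll1 -0.75. Under the spleen label, DESeq2 size factors gave Siglec1 -0.0053, Cr2 -0.0098 and Cd1d1 -0.0037, globin kept Cr2 -0.0032, the 5 CPM filter Siglec1 -0.023, Cr2 -0.030 and Cd1d1 -0.034, and DESeq2 Cr2 -0.0099 and Cd1d1 -0.021.

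Leaving out each library, the estimates ranged, over all 12, from -0.36 to 0.024 for Marco, -0.30 to 0.21 for Siglec1 and -0.17 to 0.068 for Cr2; globin-poor, from -0.29 to 0.081 for Marco and -0.58 to 0.016 for Dll1; and globin-rich, from -1.08 to 1.87 for Siglec1 and -4.88 to 0.26 for Nr1h3. Under the blood label they ranged from -1.05 to 0.64 for Siglec1, -0.054 to 0.24 for Cd1d1 and -0.13 to 1.26 for Notch2. Under the spleen label they ranged from -0.25 to 5.75 for Marco, -0.74 to 0.97 for Siglec1, -0.36 to 1.41 for Nr1h3, -0.30 to 0.88 for Cr2, -0.089 to 0.22 for Cd1d1 and -0.25 to 3.72 for Dll1. For the interaction they ranged from -1.97 to 0.024 for Cd209b, -0.47 to 0.46 for Cr2 and -0.46 to 0.20 for Cd1d1.

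Of 13 same-numbered pairs of libraries 6 had a correlation of deviations over 0.1, with a range of -0.55 to 0.64. Most of these pairs set KO against WT and cannot come from a single mouse. The pairs of blood and spleen within a genotype were at 0.342 (KO 03), 0.088 (WT 01), -0.009 (WT 04) and -0.105 (KO 04). These are too few to tell whether a replicate number names a mouse. The replicate block gave 0 called genes between KO and WT and 13 for the tissue label, and reversed Cd1d1 to -0.16 (blood label) and -0.042 (spleen label) and, for the interaction, Marco to 0.12 and Cd209b to 0.85. It was not run for the globin-rich libraries, where it leaves no residual degrees of freedom. Marco, Cd209b and Dll1 had 12, 34 and 18 counts in all over the globin-rich libraries. They did not pass the filter on low counts there, so no genotype estimate was made for them in that kind.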

Other observations

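Cell types outside the marginal zone were compared between KO and WT in the globin-poor libraries by the same model (edgeR, log2 fold change ± SE, KO over WT), and no member of their lists was called. Of 8 neutrophil genes 5 had estimates above 0 and 3 below, with a median of 0.10. The granulocyte gene Retnlg was at -0.86 ± 0.15, with TMM-scaled levels of 39.2 ± 6.31 in KO and 63.6 ± 19.5 in WT (SD, n = 3 each; unadjusted p = 0.000536, edgeR adjusted p = 0.741), and the neutrophil collagenase gene Mmp8 was at -0.64 ± 0.24. Among the monocyte and dendritic cell genes the receptor Flt3 was at -0.40 ± 0.17 and Clec9a, of cross-presenting dendritic cells, at -0.52 ± 0.24. The plasma cell factor Prdm1 was at 0.42 ± 0.26 and the plasma cell surface gene Sdc1 at 0.29 ± 0.23. Of 7 red pulp macrophage genes 5 were below 0, with Adgre1 (F4/80) at -0.32 ± 0.19 and Vcam1 at -0.35 ± 0.27. Of 6 T cell genes 5 were below 0, with Cd8a at -0.28 ± 0.18 and Cd3d at -0.26 ± 0.30. Of 6 platelet genes 4 were below 0, while Gp9 was at 0.26 ± 0.28 and Gp1bb at 0.27 ± 0.36. For Gp9 the group means ran the other way, at 19.9 ± 6.07 in KO and 21.9 ± 10.6 in WT (TMM-scaled, SD, n = 3 each); the estimate has the tissue label as a term and the means do not.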
